A study of Homo sapiens with 18 samples.

Results

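Senescent and control IMR90 ER:RAS cells were compared while both were held under the N-myristoyltransferase inhibitor DDD86481. The 6 libraries of this comparison, 3 of senescent and 3 of control cells, were chosen by their labels from the 18 libraries of the series, and no measured value entered the choice. IMR90 cells are lung fibroblasts kept as an established human line, and ER:RAS is an activated HRAS fused to the hormone-binding part of the oestrogen receptor, brought in by retrovirus, so that 4-hydroxytamoxifen (4OHT) switches it on. Every group carried the fusion and differed from the others only in what was added. Senescent cells had received 100 nM 4OHT and control cells its solvent, DMSO, and after 7 days 1.5 µM DDD86481 was added to both for 3 more days, so that RNA was taken on day 10. The same pair of states with DMSO in place of the inhibitor, and with 300 nM of a second inhibitor, IMP1088, served for comparison, again with 3 libraries a group. The model is 1 cell line with 1 oncogene, and no label says whether the replicates were separate cultures, so p-values measure the spread between these libraries. The study counts 3 independent experiments in its heatmap of secreted factors in these cells with these inhibitors.

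Oncogenic RAS first drives fibroblasts through the ERK cascade and then into a stable arrest held by CDK inhibitors, the state called oncogene-induced senescence. Cells in this state lose the transcripts of DNA replication and mitosis and release cytokines, chemokines and matrix proteases, the senescence-associated secretory phenotype (SASP), much of it under NF-κB and interleukin-1. N-myristoyltransferases (NMT1 and NMT2) attach the fatty acid myristate to the first glycine of proteins such as ARF GTPases, which recruit the COPI coat to the Golgi, and SRC family kinases. DDD86481 and IMP1088 block both enzymes.

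The promoters of 6 genes show the sites that 3 of the gene groups below are known for. They were read from RefSeq promoters on GRCh38.p14 and cover the 120 bases just before the start of transcription, 5′ to 3′ along the gene's strand, with the matched letters in capitals. The chemokine genes CXCL8 (chr4:73740449-73740568, plus strand) and CXCL1 (chr4:73869273-73869392, plus strand) carry GGAATTTCC, a form of the NF-κB site. The mitotic genes PLK1 (chr16:23678769-23678888, plus strand) and CCNB2 (chr15:59105026-59105145, plus strand) carry TTTGAA, the cell cycle homology region (CHR) through which the DREAM complex holds mitotic genes silent. The endoplasmic reticulum (ER) chaperone genes HSPA5 (chr9:125241344-125241463, minus strand) and HSP90B1 (chr12:103930290-103930409, plus strand) carry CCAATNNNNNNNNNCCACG, the ER stress response element (ERSE), which in HSP90B1 lies on the opposite strand.
CXCL8: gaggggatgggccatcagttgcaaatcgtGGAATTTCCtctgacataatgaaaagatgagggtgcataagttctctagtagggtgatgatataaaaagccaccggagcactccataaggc
CXCL1: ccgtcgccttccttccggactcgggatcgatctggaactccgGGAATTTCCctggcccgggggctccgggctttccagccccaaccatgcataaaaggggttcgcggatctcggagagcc
PLK1: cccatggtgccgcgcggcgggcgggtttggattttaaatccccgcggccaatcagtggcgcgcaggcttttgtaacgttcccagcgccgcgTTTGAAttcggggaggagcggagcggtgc
CCNB2: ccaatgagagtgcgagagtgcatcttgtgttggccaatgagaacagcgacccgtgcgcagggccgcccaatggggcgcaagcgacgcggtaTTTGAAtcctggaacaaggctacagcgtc
HSPA5: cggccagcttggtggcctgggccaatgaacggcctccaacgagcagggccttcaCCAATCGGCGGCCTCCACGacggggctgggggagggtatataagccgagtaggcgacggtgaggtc
HSP90B1: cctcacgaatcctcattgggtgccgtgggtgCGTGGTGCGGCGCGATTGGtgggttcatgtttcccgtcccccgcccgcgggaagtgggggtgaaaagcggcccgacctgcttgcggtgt

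Over the 250 bases before the start, and on both strands, GGAATTTCC was found in 8 of 12 chemokine promoters (66.7%) against 0.432% of the 11104 promoters of genes tested. TTTGAA was found in 21 of 40 promoters of mitosis and kinetochore genes (52.5%) against 8.53%. The ERSE was found in 6 of 28 promoters of ER chaperones and stress sensors (21.4%) against 0.126%. A match shows that the letters are there and not that a factor was bound.

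Depth was even, with 16143716 to 19730938 counts in the control libraries and 17538417 to 20103028 in the senescent ones. All 12 fibroblast markers stood above the floor of 3 counts in every one of the 6 libraries, but their summed level was 31100 to 36900 CPM (counts scaled to a common library size) in control and 11600 to 12300 CPM in senescent libraries. Most of the senescent sum was VIM, which was higher there, at 3378 to 3993 and 8259 to 8661 CPM. The other fibroblast markers were lower, among them DCN, at 1769 to 2023 and 8.2 to 9.4 CPM, and TBX4, at 17.3 to 24.3 and at most 0.67 CPM. Markers of epithelial cells and leukocytes summed to 1.46 CPM at most in any library, with KRT5, KRT14, SFTPC, SFTPB, SCGB1A1, NKX2-1, CD3E and TYROBP at 0 in all 6. Those of endothelial cells summed to 37 to 51.8 CPM in control and 14.7 to 25.8 CPM in senescent libraries, most of it TEK, at 33.1 to 48.5 and 2.88 to 4.91 CPM, while CLDN5 went from 0.056 CPM at most to between 5.76 and 11.8 CPM, PECAM1 from 0.313 CPM at most to between 1.10 and 2.62 CPM, and CDH5 from 0 to between 0.273 and 0.552 CPM. Endothelial markers above the floor in every library numbered 3 of 6 in control and 6 of 6 in senescent cells. Those of smooth muscle summed to 86.7 to 105 and 150 to 164 CPM, but the higher sum was SMTN, at 47.4 to 50.9 and 149.5 to 163.6 CPM, while DES was at 9.91 to 12.6 and at most 0.218 CPM, LMOD1 at 25.0 to 42.5 and at most 0.261 CPM, and MYH11 at 0.336 to 0.887 and at most 0.307 CPM, so that 4 of 4 and 1 of 4 stood above the floor in every library. In bulk RNA fewer cells that express a gene and less of its RNA per cell cannot be told apart, and the part of these marker levels in the results below was not tested. Of all pairs of replicates in the series, control DMSO replicate 3 stood furthest from its group, with a chi-square per gene of 97.2 and 49 against the other two, where no other pair passed 26.3. Its summed collagens were 41597 CPM against 56342 and 63677 CPM, and its Notch genes 166.6 CPM against 295.1 and 355.5 CPM. It enters the values under DMSO and every interaction, but no value of the comparison under DDD86481 itself beyond the shared estimate of spread.

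With the inhibitor in both states, most of the transcriptome still separated senescent from control cells. Of 14341 genes tested, 10616 (74%) differed at an adjusted p of 0.05 or less, with 5177 (36.1%) higher and 5439 (37.9%) lower in senescent cells, by edgeR's quasi-likelihood test. At least 4-fold differences in that set numbered 934 upwards and 1359 downwards, and in 10293 of the 10616 genes the CPM of the 2 groups did not overlap, as in 76.1% of all genes tested. Upper quartile scaling gave 4585 higher and 6002 lower. The same comparison under DMSO, which shares no library with it, called 9827 genes (68.5%), 4663 (32.5%) higher and 5164 (36%) lower. Of the genes called with DDD86481, 76.3% were also called with DMSO, and these were 82.4% of the genes called with DMSO. Among the 8098 genes called in both, 7801 differed in the same direction and 297 in the opposite one. Under IMP1088 the comparison called 10626 genes (74.1%), with 5197 (36.2%) higher and 5429 (37.9%) lower. The doses of the 2 inhibitors differ, so their values are only set side by side.

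The interaction term, which asks whether the senescence difference under DDD86481 departs from that under DMSO, was called for 4351 genes (30.3%), 2068 positive (14.4%) and 2283 negative (15.9%). Without control DMSO replicate 3 it was called for 3622 genes, 1643 positive and 1979 negative. Which sign was the more frequent depended on the processing, with 2392 positive and 2052 negative under upper quartile scaling and 1753 and 1520 when only the 12 libraries were fitted. Of these, 1336 genes had a wider difference in the same direction with the inhibitor, 684 a narrower one and 297 one of the opposite sign. A further 1231 genes were called with DDD86481 alone, 765 with DMSO alone and 38 in neither. Below, a log2 difference is senescent minus control, and the adjusted p is from edgeR's test. The value after ± is the size of the difference divided by the square root of edgeR's F statistic. This is an approximate standard error that was not estimated directly. For genes with few counts in a group it can be smaller than the counting error alone. CPM given as 3 values are the 3 libraries of a group in replicate order.

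**Figure D1:**
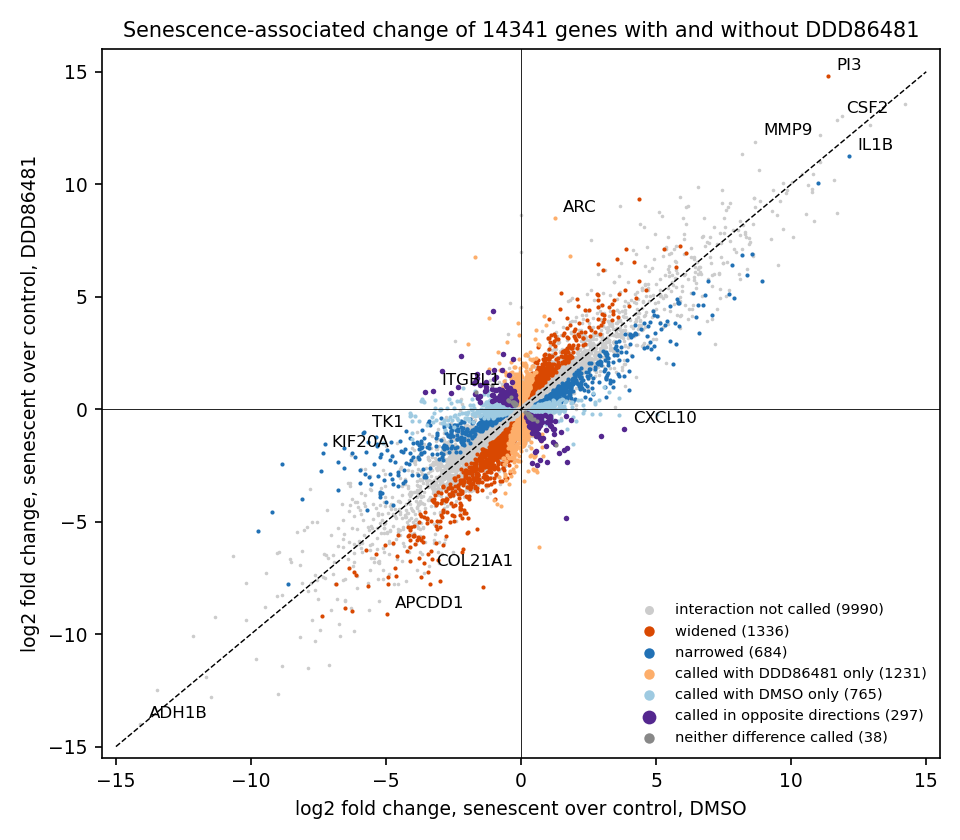
Log2 fold change of senescent over control cells under DMSO (x axis) and under DDD86481 (y axis) for the 14341 genes tested, 1 point a gene, coloured by what the interaction term called, with the line of equal change dashed. The 1336 widened genes lie on the outer side of the line, the 684 narrowed genes towards the x axis and the 297 genes called in opposite directions in the other quadrants. Genes near the far ends have a group at or near 0 counts, and their fitted values depend on the prior count.

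The fusion and the ERK cascade came first. HRAS, which holds the reads of the fusion as well as of the cell's own gene, was at 3933, 3618 and 4173 CPM in control and at 5905, 5114 and 5901 CPM in senescent libraries, 0.53 ± 0.09 higher (adjusted p = 3.24e-05). ESR1, whose hormone-binding part is in the fusion, was at 2258, 2046 and 2439 CPM and at 3568, 2588 and 3310 CPM, 0.49 ± 0.13 higher (adjusted p = 0.00209). Both counts were higher in every senescent library than in any control library, and reads of the fusion and of the cell's own genes cannot be told apart in them. Of 20 tested genes of RAS and ERK feedback 15 rose (75%, against 36.1% of all genes) and 4 fell (20%, against 37.9%). Their median log2 difference was 1.05, against 1.22 under DMSO and -0.04 over all genes. The phosphatases of ERK rose: DUSP6 went from 124, 109 and 95.9 CPM to 591, 594 and 493 CPM (2.35 ± 0.12, adjusted p = 5.27e-13), and DUSP4 from 6.47, 5.27 and 5.37 CPM to 60.1, 53.4 and 47.4 CPM (3.23 ± 0.13, adjusted p = 1.1e-14). For DUSP4 and for the RAS antagonist SPRY4 the rise was smaller than under DMSO, 3.23 against 4.67 and 0.94 against 2.27 (interaction adjusted p = 1.09e-05 and 1.39e-05). The largest rise of the list was that of IER3, an immediate early gene, from 173, 185 and 172 CPM to 1893, 2282 and 2161 CPM (3.58 ± 0.19), close to its 3.55 under DMSO. FOSL1, an AP-1 subunit induced by ERK, differed by 1.87 ± 0.16 (adjusted p = 1.47e-09). The lowest was EPHA4, an ephrin receptor, from 71.6, 77.0 and 70.4 CPM to 10.4, 13.5 and 13.4 CPM, and its fall of -2.55 was wider than the -1.24 under DMSO (interaction adjusted p = 0.000874). The interaction was negative for 10 genes of the list and positive for 1, 55% of the list against 30.3% of all genes.

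The CDK inhibitors of the arrest stayed high in senescent cells. CDKN1A (p21) was at 354, 340 and 326 CPM in control and at 1255, 1474 and 1437 CPM in senescent libraries, 2.03 ± 0.11 higher (adjusted p = 1.65e-12). CDKN2A, the gene of p16 and ARF, was at 48.3, 51.8 and 54 CPM and at 141, 109 and 104 CPM (1.20 ± 0.14, adjusted p = 2.29e-07). CDKN2B (p15) rose from 38.2, 25.8 and 30.6 CPM to 113, 106 and 108 CPM, a log2 difference of 1.79 ± 0.12 that was smaller than the 3.10 under DMSO (interaction adjusted p = 1.18e-05). The groups did not overlap in any of the 3, as in 76.1% of all genes tested. CDKN2C (p18), by contrast, fell under DMSO from a mean of 13.5 to 0.775 CPM but was at 6.99, 8.80 and 7.66 CPM and at 6.93, 7.37 and 4.78 CPM under DDD86481, where it was not called (-0.29 ± 0.18, adjusted p = 0.149, interaction adjusted p = 4.32e-08). GDF15, a stress cytokine, rose from 153, 166 and 141 CPM to 1399, 1022 and 965 CPM (2.88 ± 0.15, adjusted p = 9.49e-13). Of the 19 tested genes of this list of CDK inhibitors and stress targets 7 rose (36.8%, near the 36.1% of all genes) and 10 fell (52.6%, against 37.9%).

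Proliferation genes departed from DMSO more than the other lists by the median interaction, 2.11 for mitosis and 1.01 for DNA replication. Of 46 mitosis and kinetochore genes 31 fell (67.4%, against 37.9% of all genes) and 8 rose (17.4%, against 36.1%), with a median log2 difference of -1.50 against -3.83 under DMSO. The interaction was positive for 36 and negative for 0, 78.3% of the list against 30.3% of all genes. Both medians rest partly on genes near 0 counts: with 7 such genes set to their bound under DDD86481 the median was -1.46. Of 41 genes of DNA replication and nucleotide synthesis 21 fell (51.2%) and 10 rose (24.4%), at a median of -0.35 against -1.49, with 29 interactions positive and 0 negative (70.7%). The summed level of the 46 mitotic genes was 690.3 to 758.3 CPM in control cells under DMSO, and it was 189.4 to 232.6 CPM in control and 212.3 to 225.8 CPM in senescent cells under DDD86481, against 179.0 to 189.8 CPM in senescent cells under DMSO. Thus the 2 states overlapped in this sum under the inhibitor, at a level near that of senescent cells without it. For the 41 replication genes the sums were 551.2 to 593.9 CPM in control and 550.9 to 598.0 CPM in senescent cells under DDD86481, between the 853.0 to 982.9 CPM of control and the 426.7 to 470.2 CPM of senescent cells under DMSO.

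**Figure D2:**
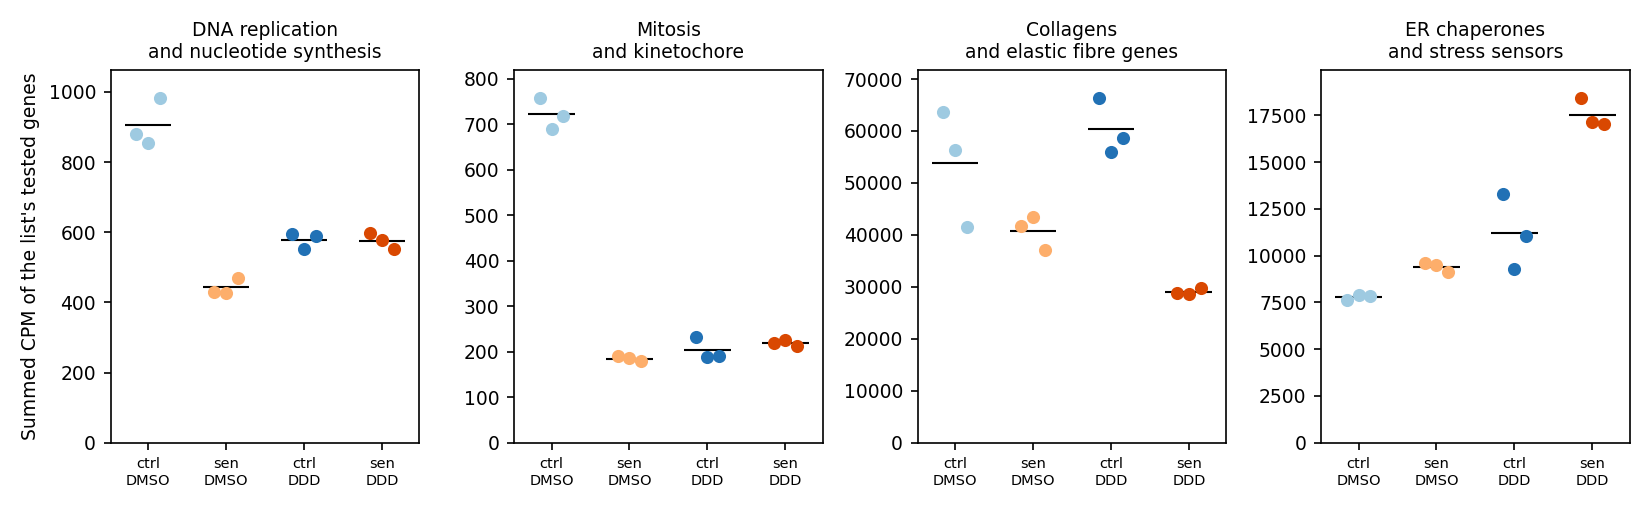
Summed CPM of the tested genes of 4 lists (y axis, from 0) in each library of the 4 groups named on the x axis (ctrl, control; sen, senescent; DDD, DDD86481), 1 point a library, with a line at the mean of 3 libraries. Replication and mitosis genes stand high in control cells under DMSO alone, whereas under DDD86481 the 2 states overlap in both panels, collagens are lowest and ER chaperones highest in senescent cells under DDD86481.

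TK1, thymidine kinase, was at 3.39, 3.08 and 3.27 CPM in control and at 1.69, 1.25 and 1.78 CPM in senescent libraries (-1.05 ± 0.25, adjusted p = 0.000767), whereas under DMSO the means were 19.7 and 0.332 CPM (-5.84). Its means were thus lower in control and higher in senescent cells than under DMSO, and the interaction was 4.79 ± 0.41 (adjusted p = 1.24e-07). RRM2, a subunit of ribonucleotide reductase, was at 5.01, 4.71 and 3.97 CPM and at 4.59, 4.65 and 4.97 CPM, a log2 difference of 0.06 ± 0.18 (adjusted p = 0.785) where that under DMSO was -2.76. CDC6, a licensing factor of replication origins, differed by -0.05 ± 0.18 with 7.77, 4.99 and 5.37 CPM in control and 5.19, 6.95 and 5.40 CPM in senescent libraries, against -3.01 under DMSO (interaction adjusted p = 3.85e-07). PCNA, the sliding clamp, differed by -0.16 ± 0.15 against -1.17, and cyclin B1 (CCNB1) by 0.20 ± 0.13 against -1.42, neither of them called under DDD86481 (adjusted p = 0.344 and 0.153).

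Other mitotic genes still fell. TOP2A, topoisomerase II of dividing cells, went from 15, 8.80 and 8.65 CPM to 1.53, 1.99 and 1.41 CPM (-2.71 ± 0.22, adjusted p = 6.06e-10), less than the -4.33 under DMSO (interaction adjusted p = 0.000665). MKI67, the proliferation antigen Ki-67, went from 5.90, 3.03 and 2.90 CPM to 0.164, 0.052 and 0 CPM, at least 21.4-fold lower against the highest floor of a senescent library, and was at least 116-fold lower under DMSO. CDK1, the mitotic kinase, was at 2.71, 2.13 and 1.64 CPM and, at or under the floor, at 0.109, 0.052 and 0.061 CPM, at least 11.7-fold lower. PLK1, whose CHR is printed above, fell by 2.95 ± 0.36 on the log2 scale (adjusted p = 2.96e-07), and cyclin A2 (CCNA2) by 1.49 ± 0.25 (adjusted p = 2.42e-05). Cyclin B2 (CCNB2), named for its printed promoter, fell from a mean of 2.25 to 0.417 CPM. Differences were also much narrower than under DMSO for KIF20A, a kinesin of cytokinesis, and BIRC5 (survivin). KIF20A averaged 2.30 and 0.592 CPM under DDD86481 against 17.0 and 0.101 CPM under DMSO, and BIRC5 2.03 and 0.733 CPM against 21.2 and 0.412 CPM (interaction adjusted p = 1.49e-05 and 1.81e-05). KIF20A was at or under the floor in all 3 senescent DMSO libraries, so that its fall there was at least 91.2-fold and its interaction value depends on the prior count. MCM2, of the replicative helicase, fell from 22.5, 20.5 and 24.2 CPM to 10.7, 9.66 and 9.20 CPM, and TYMS, thymidylate synthase, from 12.4, 12.7 and 13.3 CPM to 6.66, 6.90 and 6.38 CPM (-0.94 ± 0.17 against -2.56 under DMSO, interaction adjusted p = 4.99e-05).

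Some proliferation genes rose, 10 of 41 of the replication list (24.4%) and 8 of 46 of the mitosis list (17.4%), fewer than the 36.1% of all genes. Under DMSO 3 and 2 rose, where 32.5% of all genes did. E2F1, the transcription factor of the G1 to S transition, was at 4.80, 4.37 and 4.39 CPM in control and 19.4, 18 and 18.8 CPM in senescent libraries, 2.05 ± 0.18 higher against 0.58 under DMSO (interaction adjusted p = 0.000196). ESPL1, the protease separase, rose from 1.36, 0.672 and 1.07 CPM to 6.11, 5.28 and 5.46 CPM (2.42 ± 0.25, adjusted p = 2.89e-08), against 0.84 under DMSO. Of the nuclear envelope and HMGB genes, 3 of 13 tested rose (23.1%, against 36.1% of all genes) and 7 fell (53.8%, against 37.9%). LMNB1, the lamin whose loss marks senescence, was at 13.0, 8.29 and 12.1 CPM and at 6.11, 3.81 and 2.45 CPM (-1.42 ± 0.27), a smaller fall than the -3.69 under DMSO (interaction adjusted p = 0.000406). HMGB2, a chromatin protein of dividing cells, fell by 0.81 ± 0.17 on the log2 scale, and by 2.84 under DMSO (interaction adjusted p = 6.95e-06). LBR, the lamin B receptor, fell from 44.8, 49.1 and 46.7 CPM to 13.9, 13.0 and 14.5 CPM (-1.77 ± 0.11, against -1.84 under DMSO).

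Interleukin-1 genes were far higher in senescent cells under the inhibitor. Of the interleukin-1 genes all 8 tested differed, 6 higher (75%, against 36.1% of all genes) and 2 lower (25%, against 37.9%). IL1B (GRCh38.p14 chromosome 2, 112829751 to 112836779), the ligand interleukin-1β, was at 2.14, 2.07 and 2.15 CPM in control and at 5218, 5208 and 5127 CPM in senescent libraries, 11.25 ± 0.20 higher (adjusted p = 5.8e-20) against 12.15 under DMSO (interaction adjusted p = 0.0125). IL1A, its membrane-bound partner, was at 0.470, 0.280 and 0.748 CPM and at 177, 243 and 195 CPM (8.63 ± 0.27). Their receptor IL1R1 moved the other way, from 625, 633 and 605 CPM to 42.6, 49.3 and 50.5 CPM (-3.71 ± 0.14), further than the -2.96 under DMSO (interaction adjusted p = 0.0052). Of 15 NF-κB subunits and inhibitors 12 rose (80%) and 1 fell (6.67%). RELB rose from 28.4, 24.1 and 23.3 CPM to 87.6, 69.3 and 78.2 CPM (1.63 ± 0.15), and BIRC3, an NF-κB target that blocks cell death, from 3.18, 1.74 and 2.34 CPM to 17.4, 25.4 and 24.5 CPM (3.21 ± 0.24). TNFAIP3 (A20), a feedback inhibitor, rose less than under DMSO, 0.41 ± 0.17 against 1.50 (interaction adjusted p = 0.00254), and its call under DDD86481 (adjusted p = 0.0337) was lost in 3 of 6 fits that left out 1 library, at most without senescent replicate 3 (adjusted p = 0.172), and under upper quartile scaling (0.0907).

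The chemokines moved both ways. Of 16 tested 8 rose (50%, against 36.1% of all genes) and 7 fell (43.8%, against 37.9%), with a median of 0.98 against 3.01 under DMSO. CXCL8 (chromosome 4, 73740569 to 73743716), which draws neutrophils, was at 48.2, 22.1 and 32.4 CPM in control and at 10609, 10372 and 8825 CPM in senescent libraries, 8.18 ± 0.39 higher (adjusted p = 1.5e-13) against 8.21 under DMSO. CXCL5 and CXCL1, of the same kind, rose from 5.58, 3.47 and 6.4 CPM to 6498, 5305 and 4941 CPM (10.07 ± 0.25) and from 55.4, 26.2 and 45.1 CPM to 795, 1014 and 911 CPM (4.42 ± 0.31). CCL20 rose from 0.574, 0.168 and 0.047 CPM to 164, 259 and 253 CPM (9.74 ± 0.33), with an interaction that was not called (0.40 ± 1.74, adjusted p = 0.886). These genes rose in both settings. CXCL10, an interferon-induced chemokine that draws T cells, was instead at 2.30, 0.952 and 1.64 CPM in control and at 0.819, 0.993 and 0.858 CPM in senescent libraries, so that the groups overlapped, whereas under DMSO it rose from a mean of 2.10 to 29.6 CPM. Its interaction was -4.70 ± 0.45 (adjusted p = 4.67e-07), while the fall under DDD86481 (-0.87 ± 0.38, adjusted p = 0.0425) was lost in 5 of 6 fits that left out 1 library, at most without control replicate 1 (adjusted p = 0.231), and with limma voom (0.111). CXCL12, a homeostatic chemokine of fibroblasts, went from 84.2, 104 and 98.6 CPM to 0.055, 0 and 0 CPM, at least 521-fold lower. CCL2, which draws monocytes, fell from 82.9, 54.1 and 71.2 CPM to 5.62, 18 and 12.7 CPM (-2.52 ± 0.40, adjusted p = 1.17e-05).

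**Figure D3:**
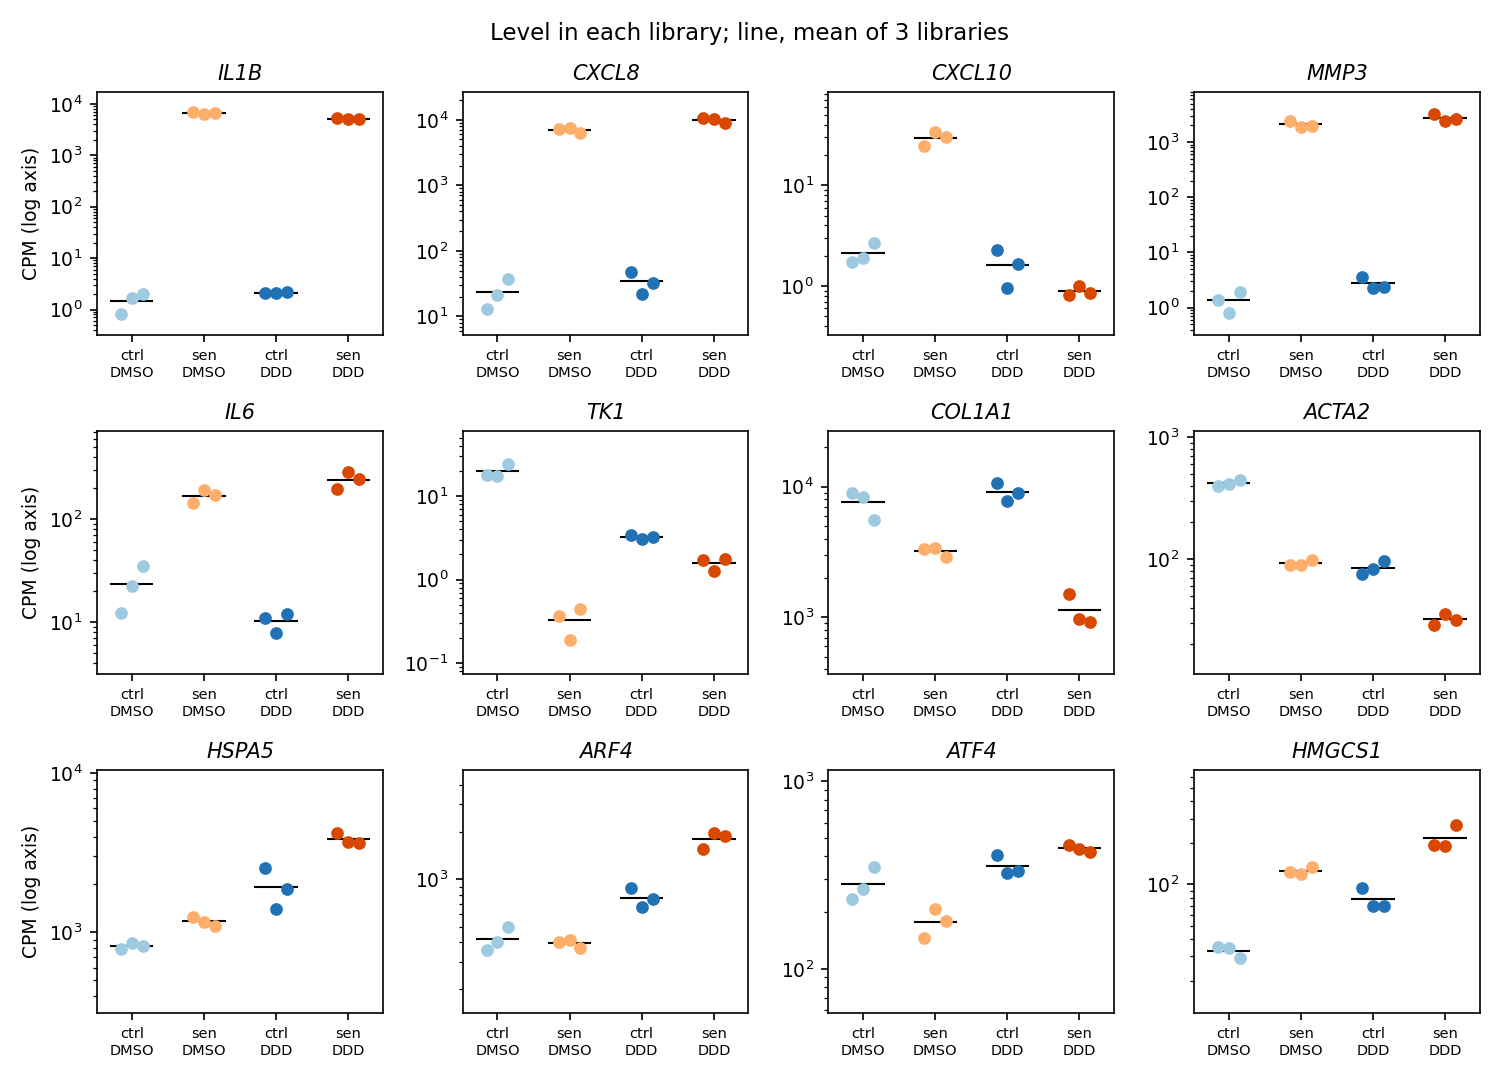
CPM of 12 genes (y axes, log scale) in the libraries of 4 groups (ctrl, control; sen, senescent; DDD, DDD86481), 1 point a library, with a line at the mean of 3 libraries. IL1B, CXCL8 and MMP3 rise in senescent cells in both settings, CXCL10 rises under DMSO and not under DDD86481, ARF4 rises under DDD86481 and not under DMSO, and TK1 falls from 19.7 to 0.332 CPM under DMSO but from 3.25 to 1.57 CPM under DDD86481.

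Colony stimulating factors were among the largest rises. CSF3 (G-CSF) was at 0.157, 0.056 and 0.093 CPM in control, at or under the floor, and at 674, 696 and 695 CPM in senescent libraries, at least 4100-fold higher. CSF2 (GM-CSF) was at 0, 0 and 0.047 CPM and at 206, 170 and 151 CPM, at least 1050-fold higher. IL6 rose from 10.9, 7.90 and 11.9 CPM to 194, 285 and 245 CPM, 4.55 ± 0.32 higher and more than the 2.86 under DMSO (interaction adjusted p = 0.00388). LIF, of the same family, rose from 115, 132 and 148 CPM to 1233, 1343 and 1248 CPM (3.27 ± 0.17). The receptor LIFR fell from 137, 131 and 135 CPM to 9.77, 9.72 and 12.6 CPM (-3.65 ± 0.17, against -2.79 under DMSO, interaction adjusted p = 0.00763), and CSF1 (M-CSF) from 51.8, 52.9 and 60.1 CPM to 13.1, 13.5 and 19.3 CPM. Over the 17 genes of this list 6 rose (35.3%, near the 36.1% of all genes) and 10 fell (58.8%, against 37.9%).

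Of 23 tested matrix proteases and inhibitors 15 rose (65.2%, against 36.1% of all genes) and 5 fell. MMP3 (stromelysin) went from 3.65, 2.30 and 2.38 CPM to 3233, 2426 and 2572 CPM (9.95 ± 0.24), and MMP1 (collagenase) from 109, 110 and 105 CPM to 14803, 12603 and 12230 CPM (6.94 ± 0.16), more than the 6.11 under DMSO (interaction adjusted p = 0.00157). MMP9, a gelatinase, was at 0 in the 3 control libraries and at 28.2, 21.8 and 23.1 CPM in the senescent ones, at least 145-fold higher, and MMP2, another gelatinase, fell from 2551, 2722 and 2662 CPM to 1353, 1337 and 1434 CPM (-0.94 ± 0.11). TIMP1 and TIMP3 are inhibitors of these enzymes. TIMP1 rose from 988, 892 and 977 CPM to 6309, 5632 and 5691 CPM (2.63 ± 0.13, against 1.61 under DMSO, interaction adjusted p = 0.00029), while TIMP3 fell from 1566, 1140 and 1350 CPM to 63.0, 53.6 and 67.8 CPM. The fall of TIMP3, -4.46 ± 0.14, was -2.26 under DMSO (interaction adjusted p = 4.32e-08). Of the plasminogen system, the protease PLAU rose from 1065, 965 and 969 CPM to 4222, 3770 and 2756 CPM, and SERPINB2, an inhibitor of it, rose to 773, 562 and 542 CPM from a control mean of 5.48 CPM. The rise of SERPINB2 was smaller than under DMSO (6.83 against 8.19, interaction adjusted p = 0.000542).

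Of 35 growth factors and IGF binding proteins 17 rose (48.6%, against 36.1% of all genes) and 11 fell (31.4%, against 37.9%). The interaction was negative for 13 and positive for 7, 57.1% of the list against 30.3% of all genes. INHBA, the subunit of activin A, rose from 35.7, 28.3 and 32.0 CPM to 2460, 2699 and 2501 CPM (6.32 ± 0.15). Ligands of the EGF receptor rose less than under DMSO: AREG went from 16.9, 6.67 and 8.32 CPM to 276, 310 and 207 CPM (4.64 against 6.56, interaction adjusted p = 0.000663) and EREG from 20.5, 15.8 and 17.0 CPM to 300, 334 and 302 CPM (4.14 against 5.05, interaction adjusted p = 0.00174). BMP2 likewise rose by 3.38 ± 0.15 against 4.94 (interaction adjusted p = 1.59e-05). IGFBP3, which binds insulin-like growth factors, was at 28.9, 20.1 and 22.0 CPM and at 17.9, 21.8 and 20.7 CPM (-0.23 ± 0.13, adjusted p = 0.112, and 0.0236 under upper quartile scaling), where under DMSO it rose from a mean of 59.1 to 107 CPM (interaction adjusted p = 0.000196). IGFBP5 was at 4189, 3231 and 3650 CPM and at 3874, 4237 and 4441 CPM (adjusted p = 0.278). The groups overlapped for both.

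**Figure D4:**
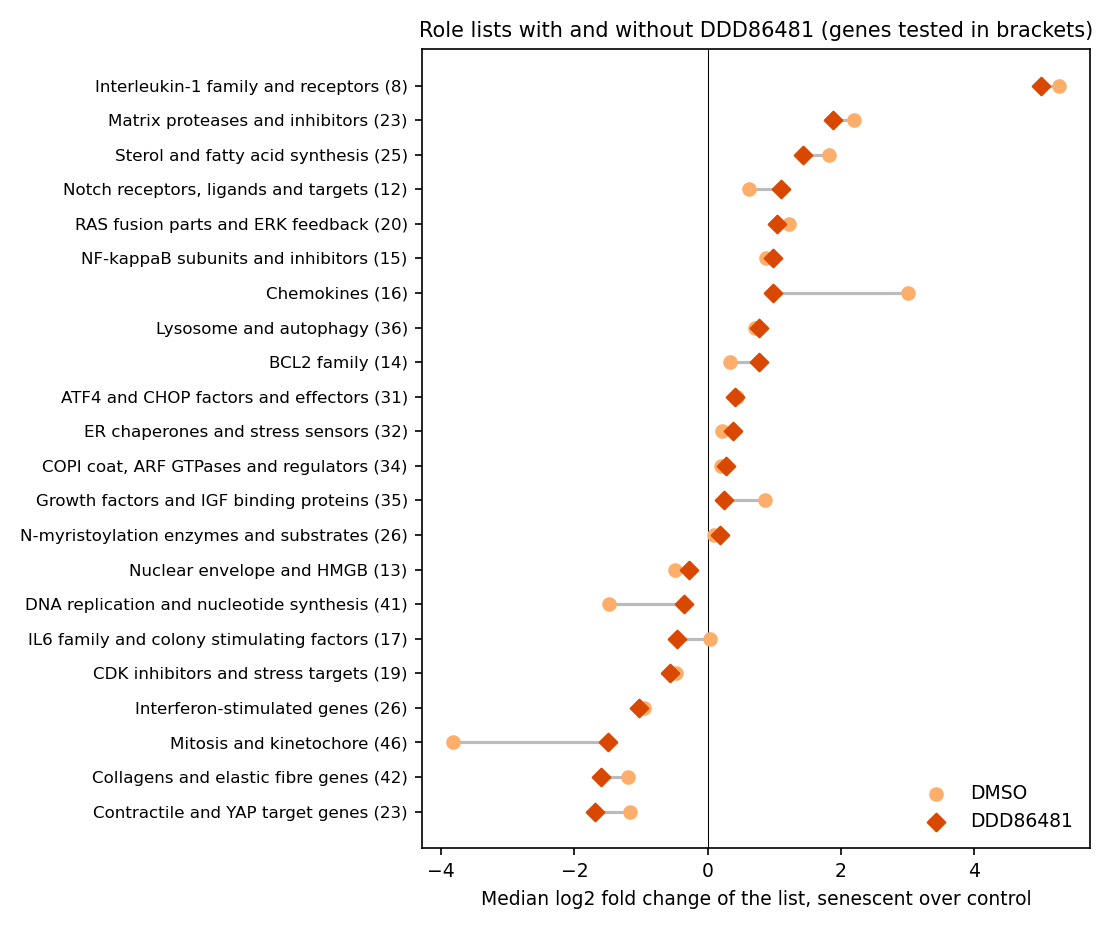
Median log2 fold change of senescent over control cells for 22 lists of genes (x axis; genes tested in brackets) under DMSO (circles) and DDD86481 (diamonds), ordered by the value under DDD86481. The widest gaps are those of mitosis (-3.83 and -1.50), chemokines (3.01 and 0.98) and DNA replication (-1.49 and -0.35). The chemokines moved both ways, and their share of interactions called was near that of all genes.

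The matrix that fibroblasts lay down was lower in senescent cells, and more so under the inhibitor. Of 42 collagen and elastic fibre genes 32 fell (76.2%, against 37.9% of all genes) and 6 rose (14.3%, against 36.1%). Their median was -1.61 against -1.19 under DMSO, or -1.41 under DMSO without control DMSO replicate 3. The interaction was negative for 17 and positive for 3 (47.6%, against 30.3% of all genes), or 16 and 6 without control DMSO replicate 3. Their summed level was 55945 to 66377 CPM in control and 28561 to 29712 CPM in senescent libraries, against 41597 to 63677 and 37190 to 43379 CPM under DMSO. COL1A1 was at 10652, 7757 and 8958 CPM in control and at 1494, 965 and 924 CPM in senescent libraries (-3.02 ± 0.19, adjusted p = 1.65e-11), against -1.24 under DMSO (interaction adjusted p = 4.62e-05). COL3A1, its partner in loose tissue, went from 6848, 4902 and 5153 CPM to 106, 94.5 and 79.2 CPM (-5.92 ± 0.19, against -3.64, interaction adjusted p = 5.91e-07). COL11A1, which nucleates fibrils, fell from 22.3, 20.3 and 19.9 CPM to 5.51, 3.13 and 3.62 CPM and was not called under DMSO (-2.35 against -0.26, interaction adjusted p = 2.75e-05). COL15A1, of basement membranes, fell from 126, 99.7 and 100 CPM to 0.491, 0.418 and 0.307 CPM, and ELN (elastin) from 17.7, 14.7 and 18.6 CPM to 0 in all 3 libraries, at least 92.5-fold lower. The opposite was seen for COL10A1, at 0.209, 0.056 and 0.467 CPM and at 42.6, 45.3 and 40.6 CPM, and for LOX, which cross-links collagen, 0.54 ± 0.11 higher (adjusted p = 0.000175).

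Of 23 contractile genes and targets of YAP 19 fell (82.6%, against 37.9% of all genes) and 2 rose (8.7%, against 36.1%). ACTA2, smooth muscle actin, was at 75, 82.6 and 97.3 CPM in control and at 28.8, 35.7 and 31.7 CPM in senescent libraries (-1.41 ± 0.12), and the fall was smaller than the -2.18 under DMSO, where the means were 420 and 92.6 CPM (interaction adjusted p = 0.00151). TAGLN and CNN1, which bind actin, fell from 371, 295 and 444 CPM to 15.9, 13.5 and 15.3 CPM (-4.63 ± 0.19) and from 19.7, 19.2 and 21.3 CPM to 1.86, 2.25 and 3.74 CPM (-2.95 ± 0.19). The matricellular genes CCN1 and CCN2 fell by 2.31 ± 0.18 and by 1.91 ± 0.21 on the log2 scale. ANKRD1, also a target of YAP, turned its direction: it went from 0.365, 0.336 and 0.374 CPM to 6.44, 7.89 and 8.46 CPM (4.38 ± 0.42, adjusted p = 9.82e-09) but from a mean of 1.39 to 0.652 CPM under DMSO (interaction 5.43 ± 0.63).

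Of 32 tested genes of ER chaperones and stress sensors 20 rose (62.5%, against 36.1% of all genes) and 0 fell, at a median of 0.38 against 0.21 under DMSO. The interaction was positive for 4 and negative for 3, 21.9% of the list against 30.3% of all genes. Their summed level was 9311 to 13267 CPM in control and 17033 to 18431 CPM in senescent libraries, with no overlap, against 7634 to 7883 and 9118 to 9610 CPM under DMSO. HSPA5 (BiP, chromosome 9, 125234853 to 125241343), the main chaperone of the ER lumen, was at 2525, 1403 and 1869 CPM and at 4189, 3697 and 3638 CPM (0.99 ± 0.15, adjusted p = 3.9e-06), and HSP90B1 (GRP94) at 1310, 915 and 1093 CPM and at 1911, 1718 and 1538 CPM (0.64 ± 0.12). For HSPA5 the difference was 0.51 under DMSO, at means of 822 and 1171 CPM, and the interaction missed the threshold (0.48 ± 0.20, adjusted p = 0.0784, and 0.0445 under upper quartile scaling). Not every gene with these roles moved. HYOU1, a co-chaperone, was at 458, 235 and 337 CPM and at 343, 323 and 332 CPM (adjusted p = 0.81), HERPUD1, of ER-associated degradation, at 343, 202 and 233 CPM and at 317, 315 and 288 CPM (adjusted p = 0.112), and XBP1, the transcription factor of the IRE1 arm, at 224, 167 and 194 CPM and at 195, 159 and 152 CPM (adjusted p = 0.12, and 0.0231 in the direction of a fall under upper quartile scaling). Of the sensors, ERN1 (IRE1) rose from 16.3, 10.1 and 12.9 CPM to 21.4, 23.9 and 23.7 CPM (0.81 ± 0.16, against 1.86 under DMSO, interaction adjusted p = 0.00198), whereas EIF2AK3 (PERK) and ATF6 differed by 0.30 ± 0.15 and 0.19 ± 0.11 (adjusted p = 0.0703 and 0.127, and 0.0497 for EIF2AK3 with DESeq2's size factors).

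The integrated stress response moved unevenly. ATF4, its transcription factor, was at 405, 323 and 331 CPM in control and at 460, 437 and 419 CPM in senescent libraries under DDD86481 (0.31 ± 0.14), but fell from a mean of 284 to 178 CPM under DMSO (-0.67, interaction 0.99 ± 0.19, adjusted p = 0.000927). The call under DDD86481 (adjusted p = 0.0422) was lost in 4 of 6 fits that left out 1 library, at most without control replicate 2 (adjusted p = 0.125), and under upper quartile scaling (0.173), which lowered the median difference of all genes to -0.15. EAF2 also turned its direction, from 3.50, 2.63 and 3.65 CPM to 9.88, 11.9 and 9.50 CPM (1.67 ± 0.19) against -1.24 under DMSO (interaction adjusted p = 1.49e-05). INHBE, an activin subunit induced by ATF4, rose from 14.7, 3.87 and 6.78 CPM to 23.3, 27.0 and 36.7 CPM (1.78 ± 0.31), and was at means of 0.996 and 0.437 CPM under DMSO (interaction adjusted p = 0.00515). TRIB3, a pseudokinase of this response, rose from 123, 64.3 and 103 CPM to 252, 206 and 206 CPM, less than under DMSO (1.20 against 2.61, interaction adjusted p = 0.000475), and CHAC1, which degrades glutathione, from 23.5, 7.67 and 15.4 CPM to 67.2, 54.6 and 48.1 CPM (1.87 ± 0.29). ATF3 rose by 1.09 ± 0.26 (adjusted p = 0.00091). DDIT3 (CHOP) was at 57.2, 30.6 and 40.8 CPM and at 61.7, 56.6 and 53.8 CPM (0.42 ± 0.19), which missed the threshold (adjusted p = 0.0576) but passed it with DESeq2's size factors (0.0417). The stress gene NUPR1 fell from 108, 110 and 102 CPM to 7.92, 8.67 and 8.03 CPM (-3.70 ± 0.14), less than the -5.23 under DMSO (interaction adjusted p = 3.45e-05). In all, 16 of 31 tested genes of this list rose (51.6%, against 36.1% of all genes) and 4 fell (12.9%, against 37.9%).

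Of 34 tested genes of COPI, ARFs and their regulators 18 rose (52.9%, against 36.1% of all genes), 1 fell and 15 were not called, at a median of 0.27 against 0.21 under DMSO. The interaction was positive for 10 and negative for 0, 29.4% of the list against 30.3% of all genes. ARF4 (chromosome 3, 57571363 to 57597344), an N-myristoylated GTPase of the Golgi, was at 883, 665 and 750 CPM in control and at 1569, 1978 and 1872 CPM in senescent libraries, 1.24 ± 0.13 higher (adjusted p = 3.45e-08), but was at means of 417 and 393 CPM under DMSO (-0.09, interaction 1.32 ± 0.18, adjusted p = 2.9e-05). ARF1 rose from 516, 441 and 481 CPM to 741, 720 and 793 CPM (0.65 ± 0.09, against 0.70 under DMSO). Of the coat, COPE rose from 153, 136 and 159 CPM to 392, 343 and 356 CPM (1.28 ± 0.12, against 0.50, interaction adjusted p = 0.0022), COPB2 by 0.34 ± 0.08 and COPA by 0.17 ± 0.12 (adjusted p = 0.225), while COPG2 fell from 44.9, 45.5 and 48.4 CPM to 30.0, 28.4 and 24.5 CPM. KDELR3, a receptor that the coat returns to the ER, rose from 178, 139 and 162 CPM to 324, 409 and 402 CPM (1.25 ± 0.12, against 0.54, interaction adjusted p = 0.00364).

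Of 26 N-myristoylation enzymes and substrates 11 rose (42.3%) and 8 fell (30.8%), near the 36.1% and 37.9% of all genes, at a median of 0.18. NMT1 was at 191, 156 and 174 CPM and 173, 178 and 173 CPM (0.01 ± 0.08, adjusted p = 0.945), and NMT2 lower, from 18.4, 22.7 and 16.5 CPM to 11.8, 15 and 11.7 CPM (-0.57 ± 0.14, adjusted p = 0.00118). Of the substrates, MARCKS and MARCKSL1, which bind actin at the membrane, fell from 288, 291 and 277 CPM to 149, 139 and 135 CPM (-1.02 ± 0.08) and from 329, 353 and 347 CPM to 130, 123 and 130 CPM (-1.43 ± 0.11, against -0.82 under DMSO, interaction adjusted p = 0.00573). The kinase SRC differed by 0.10 ± 0.14 (adjusted p = 0.518), and AIFM2 (FSP1), which guards against lipid peroxidation, rose from 19.0, 19.9 and 18.8 CPM to 47.9, 45.8 and 45.6 CPM (1.27 ± 0.11).

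Lysosome genes rose more often than they fell, 23 (63.9%, against 36.1% of all genes) against 6 (16.7%, against 37.9%) of 36 tested. CTSD, a lysosomal protease, went from 458, 516 and 521 CPM to 1100, 1052 and 1088 CPM (1.12 ± 0.08), and GLB1, the enzyme of senescence-associated β-galactosidase, from 93.5, 101 and 103 CPM to 114, 134 and 143 CPM (0.39 ± 0.09). SQSTM1 (p62), an autophagy receptor, rose from 1305, 1298 and 1289 CPM to 4584, 3662 and 4294 CPM, more than under DMSO (1.69 against 0.92, interaction adjusted p = 0.000259). ATP6V0D2, a subunit of the proton pump, was at 0, 0.112 and 0 CPM and at 23.0, 27.6 and 33.2 CPM, at least 166-fold higher. Of 25 genes of sterol and fatty acid synthesis 23 rose (92%) and 0 fell, at a median of 1.43 against 1.83. The interaction was negative for 11, 44% of the list against 30.3% of all genes. HMGCS1, an early enzyme of the mevalonate pathway, rose from 94.2, 69.7 and 69.2 CPM to 193, 190 and 270 CPM (1.49 ± 0.15). FDPS, which makes farnesyl diphosphate, rose from 98.3, 94.5 and 91.0 CPM to 497, 490 and 548 CPM (2.43 ± 0.11).

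Interferon-stimulated genes fell in 17 (65.4%, against 37.9% of all genes) and rose in 3 (11.5%, against 36.1%) of 26 tested, at a median of -1.04 against -0.95 under DMSO. IFIT1, which binds foreign RNA, went from 11.1, 14.1 and 13.5 CPM to 0.546, 1.20 and 0.245 CPM (-4.22 ± 0.30), and IFI44L from 2.30, 2.18 and 2.20 CPM to 0, 0.157 and 0.123 CPM, at least 12.1-fold lower. ISG15, a ubiquitin-like modifier, rose from 16.8, 17.4 and 16.9 CPM to 55.5, 38.3 and 35.6 CPM (1.34 ± 0.23). In the BCL2 family 9 of 14 tested rose (64.3%) and 4 fell (28.6%). The pro-survival genes BCL2L1 (BCL-XL), MCL1 and BCL2A1 rose: BCL2L1 from 76.2, 82.3 and 88.7 CPM to 153, 137 and 137 CPM (0.79 ± 0.08), MCL1 from 366, 331 and 333 CPM to 985, 777 and 724 CPM (1.27 ± 0.11, against 1.98 under DMSO, interaction adjusted p = 0.00162), and BCL2A1 from 1.15, 2.13 and 3.18 CPM to 48.3, 51 and 44.4 CPM (4.46 ± 0.22). BCL2 itself fell from 8.61, 9.52 and 11.2 CPM to 0.437, 0.157 and 0.675 CPM (-4.55 ± 0.28, against -2.73, interaction adjusted p = 0.00833). Of the pro-apoptotic genes, PMAIP1 (NOXA) rose by 1.52 ± 0.17 and BCL2L11 (BIM) fell from 17.0, 22.8 and 16.8 CPM to 0.983, 1.62 and 2.02 CPM (-3.62 ± 0.27). Of 12 tested genes of the Notch pathway 7 rose (58.3%) and 3 fell (25%), and the ligand JAG1 fell from 43.5, 50.9 and 48.6 CPM to 8.90, 9.66 and 11.3 CPM (-2.26 ± 0.16), against -0.51 under DMSO (interaction adjusted p = 7.18e-06).

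Over the 22 lists, 554 of 578 genes passed the filter on low counts, and 245 rose (44.2%, against 36.1% of all genes) and 203 fell (36.6%, against 37.9%). Genes not named above gave some of the largest differences. PI3 (elafin), an elastase inhibitor, was at 0, 0.056 and 0 CPM in control and at 700, 608 and 716 CPM in senescent libraries, at least 4010-fold higher, and its senescent mean of 675 CPM stood beside 243 CPM under DMSO (interaction adjusted p = 0.0362, and 0.521 without control DMSO replicate 2). SERPINA9 and SERPINB4, serine protease inhibitors, were at 0 in the 3 control libraries and reached 54.6, 82.5 and 96.9 CPM and 37.4, 62.5 and 59.3 CPM, at least 464-fold and 316-fold higher. SERPINA9 had the largest rise of the list of matrix proteases and inhibitors (log2 difference 13.57). The long noncoding RNA LINC02154 rose from 0.104, 0.056 and 0.187 CPM to 493, 622 and 643 CPM (12.18 ± 0.28). Its control counts were near the floor, so the value after ± understates the error. PNLIPRP3, a lipase-related gene, rose from 0 in all 3 to 15, 15.9 and 19.7 CPM, at least 100-fold. The interaction was not called for SERPINA9, SERPINB4, LINC02154 or PNLIPRP3.

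At the other end were genes that senescent cells no longer showed. ADH1B, an alcohol dehydrogenase, went from 69.0, 143 and 106 CPM to 0 in the 3 senescent libraries, at least 576-fold lower, and PTGIS, prostacyclin synthase, from 50.9, 42.1 and 42.5 CPM to 0, at least 246-fold lower. WNT2, a ligand of lung development, FMO2, a lung monooxygenase, the complement gene C7 and the elongase ELOVL2 were also at 0 in the 3 senescent libraries, from control means of 41.9, 36.7, 18.9 and 17.6 CPM, which makes them at least 228-fold, 200-fold, 103-fold and 95.5-fold lower. The interaction was not called for these genes or for ADH1B and PTGIS, so their falls were not shown to differ from those under DMSO.

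Some genes separated the 2 settings most. SEMA3B, a semaphorin, was not called under DDD86481, at 31.6, 33.0 and 32.2 CPM and 40.7, 30.3 and 29.2 CPM (0.05 ± 0.12, adjusted p = 0.713), but fell from a mean of 25.3 to 2.77 CPM under DMSO (-3.19, interaction adjusted p = 5.86e-09). ITGBL1, an integrin-like secreted protein, rose from 4.90, 7.45 and 8.37 CPM to 15, 9.25 and 11.7 CPM (0.79 ± 0.21) and fell from 38.2 to 4.03 CPM under DMSO (-3.25, interaction adjusted p = 1.96e-08), though 70.5% of its exon length overlaps FGF14. ARC, an immediate early gene of neurons, was at or under the floor in the control libraries and at 19.5, 8.62 and 34.0 CPM in the senescent ones, at least 123-fold higher and with wide spread, and averaged 0.0703 and 0.169 CPM under DMSO (interaction adjusted p = 0.0297, and 0.147 without control DMSO replicate 1). CYP26B1, which breaks down retinoic acid, rose from 0.678, 1.18 and 0.608 CPM to 2.95, 3.76 and 3.07 CPM, against a mean of 28 CPM in senescent cells under DMSO (interaction adjusted p = 1.17e-06).

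Others fell under the inhibitor alone or fell further. MXRA5, a matrix-remodelling gene, fell from 32.8, 27.8 and 30.8 CPM to 5.19, 4.91 and 8.09 CPM (-2.34 ± 0.33) where it rose from 18.5 to 60.1 CPM under DMSO (1.69, interaction adjusted p = 3.07e-06), and NKD2, an inhibitor of WNT signalling, from 13.1, 10.2 and 7.01 CPM to 2.46, 2.51 and 0.858 CPM (-2.35 ± 0.34) where it rose by 0.98 (interaction adjusted p = 1.85e-05). SHROOM3, which shapes the apical side of cells, fell from 19.5, 17.5 and 24.3 CPM to 3.00, 3.13 and 3.68 CPM (-2.65 ± 0.17, against -0.28, interaction adjusted p = 3.02e-07). SLITRK6, a neuronal membrane protein, fell from 63.5, 48.2 and 51.1 CPM to 0.546, 1.83 and 1.66 CPM (-5.33 ± 0.29, against -1.64, interaction adjusted p = 1.22e-06). APCDD1, a WNT inhibitor, and COL21A1, a fibril-associated collagen, went to or under the floor in senescent cells from control means of 13.8 and 15.1 CPM, at least 74.7-fold and 82.0-fold lower, and averaged 0.589 CPM each in senescent cells under DMSO (interaction adjusted p = 0.000294 and 0.000415, values that depend on the prior count).

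Under IMP1088, at its own dose, control and senescent cells averaged 2.14 and 5316 CPM for IL1B, 33.0 and 9072 CPM for CXCL8, 1.17 and 0.869 CPM for CXCL10, 3.89 and 1.78 CPM for TK1, 8664 and 831 CPM for COL1A1, 807 and 2093 CPM for ARF4, 1908 and 4648 CPM for HSPA5 and 0.0653 and 7.59 CPM for ARC. The list medians under IMP1088 were -1.48 for mitosis, -0.41 for DNA replication, 1.41 for chemokines and -1.48 for collagens.

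Some named genes share exon length with another gene, and since the strand setting of the counting is not certain, their reads may be shared too. By the GENCODE annotation the overlap took 48.2% of CTSD, 47.9% of TYMS (with ENOSF1), 47.8% of TAGLN, 41.3% of BCL2L1, 39.6% of DDIT3 (with MARS1), 38.9% of IER3, 37.7% of HMGCS1, 36.2% of ACTA2, 34.1% of COPB2 and 31.0% of PLAU. It lay between 10.8% and 28.6% for DUSP6, COPG2, MCM2, SQSTM1, CDKN2C, SERPINB2, AIFM2, FDPS, ARF4, MMP9, CXCL5, ATP6V0D2, NUPR1, INHBE, CDKN2A, GLB1, PLK1, CCN2 and BCL2L11. These shares are of exon length and not of reads, so they do not give the size of the uncertainty in the values of these genes.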

How the data were processed

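Poly(A) RNA of 18 libraries was sequenced. The raw counts per gene were deposited by the authors in 1 table. The submitters' processing notes name hg38, DRAGEN, STAR 2.7.8a and DESeq2 1.32.0, whereas the study's methods name hg19, TopHat and HTSeq, so the build and strand setting of the counting are not certain. The table had 28266 genes, of which 14341 passed edgeR's filterByExpr and held 99.962% of the counts. Library totals ran from 16143716 to 23189950 over the series. All 18 libraries were fitted in R 4.3.3 with edgeR 4.0.16 (TMM scaling, quasi-likelihood test, 6 group means, 12 residual degrees of freedom) and p-values were adjusted by Benjamini-Hochberg over all genes tested, at a threshold of 0.05. CPM were computed from the deposited counts on TMM-scaled library sizes. Alternatives used limma 3.58.1 and DESeq2 1.42.0. The floor is 3 counts in a library, and a bound uses the highest floor of the group. The rule for named genes took the 8 largest differences and 6 largest interactions in each direction (at least 10 CPM in the highest group), 4 genes of each interaction class and fixed list genes, 186 in all, of which 144 are named. Members and lists were chosen with earlier results of these data known. Promoters and positions are from RefSeq (GRCh38.p14) and exon overlaps from GENCODE. Some genes are not reported here.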

Additional observations from a re-analysis of the deposited data

Results flagged for a closer look

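The difference between senescent and control cells itself differed between DDD86481 and DMSO for 4351 genes (30.3% of those tested) by the interaction term of edgeR's quasi-likelihood test, and for 80 of the 144 genes named. Some genes were named because their interaction was large, so neither this count nor the next is a share to expect over all genes. Of these 80 genes, 65 kept the call in each of 12 fits that left out 1 library. The interaction is given in brackets as the log2 difference under DDD86481 minus that under DMSO. The senescence difference was wider under DDD86481 than under DMSO, in the same direction, for EPHA4 (-1.32), E2F1 (1.46), ESPL1 (1.58), IL1R1 (-0.75), IL6 (1.69), LIFR (-0.86), MMP1 (0.83), TIMP1 (1.01), TIMP3 (-2.20), INHBA (0.60), COL1A1 (-1.77), COL3A1 (-2.27), CCN1 (-0.96), COPE (0.78), KDELR3 (0.71), MARCKSL1 (-0.61), SQSTM1 (0.77), BCL2 (-1.82), JAG1 (-1.75), APCDD1 (-4.13), COL21A1 (-3.79) and SLITRK6 (-3.70). It was narrower for DUSP4 (-1.44), SPRY4 (-1.33), CDKN2B (-1.31), GDF15 (-1.15), TYMS (1.62), TK1 (4.79), CCNA2 (2.35), TOP2A (1.62), BIRC5 (4.17), KIF20A (5.39), LMNB1 (2.27), HMGB2 (2.03), IL1B (-0.90), TNFAIP3 (-1.09), SERPINB2 (-1.35), AREG (-1.92), EREG (-0.91), BMP2 (-1.56), ACTA2 (0.77), ERN1 (-1.05), TRIB3 (-1.41), NUPR1 (1.53), MCL1 (-0.71) and CYP26B1 (-3.63). It was called in both settings with opposite signs for CXCL10 (-4.70), ANKRD1 (5.43), ATF4 (0.99), EAF2 (2.92), ITGBL1 (4.04), MXRA5 (-4.03) and NKD2 (-3.33). It was called under DDD86481 and not under DMSO for COL11A1 (-2.08), INHBE (2.95), ARF4 (1.32) and SHROOM3 (-2.36). It was called under DMSO and not under DDD86481 for CDKN2C (3.82), PCNA (1.01), CDC6 (2.97), RRM2 (2.81), CCNB1 (1.63), IGFBP3 (-1.09), XBP1 (0.63) and SEMA3B (3.24). The call under DDD86481 was itself lost in 5 of 6 fits that left out 1 library for CXCL10, and with limma voom, and in 4 of 6 for ATF4, so that the opposite sign of these 2 genes does not hold in them. Values of KIF20A, APCDD1 and COL21A1, with a group at or under the floor of 3 counts, depend on the prior count.

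For the other 15 genes the call was lost in at least 1 of the 12 fits. Each is given with its interaction, the number of fits that lost the call and the highest adjusted p that leaving out 1 library gave. These were ESR1 (-0.57, lost in 4, 0.0881 without control DDD86481 replicate 3), DUSP6 (-0.57, lost in 1, 0.0582 without control DDD86481 replicate 1), CDKN1A (-0.47, lost in 6, 0.0933 without control DMSO replicate 2), MCM2 (0.56, lost in 4, 0.0829 without senescent DMSO replicate 1), PLK1 (1.60, lost in 6, 0.173 without senescent DDD86481 replicate 3), CXCL5 (-0.92, lost in 5, 0.108 without control DDD86481 replicate 3), MMP2 (-0.52, lost in 3, 0.0644 without control DDD86481 replicate 2) and IGFBP5 (-0.63, lost in 6, 0.105 without control DDD86481 replicate 1). They were also HSP90B1 (0.50, lost in 3, 0.0748 without senescent DDD86481 replicate 1), HYOU1 (-0.64, lost in 10, 0.212 without control DDD86481 replicate 1), NMT2 (0.65, lost in 1, 0.0613 without senescent DDD86481 replicate 2), GLB1 (-0.46, lost in 1, 0.0526 without control DDD86481 replicate 3), ISG15 (0.96, lost in 4, 0.0909 without senescent DDD86481 replicate 1), PI3 (3.44, lost in 4, 0.521 without control DMSO replicate 2) and ARC (7.24, lost in 2, 0.147 without control DMSO replicate 1). Values of PI3 and ARC depend on the prior count. Single outlying libraries were not tested in groups of 3, but control DMSO replicate 3, which enters every interaction, stood furthest from its group, and without it the interaction was called for 3622 genes.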

How the results depend on the processing

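The comparison under DDD86481 called 10587 to 11036 genes under other scalings (DESeq2's size factors, upper quartile), other tests (DESeq2, limma voom) and no filter on low counts, and 10113 when only its 6 libraries were fitted. Leaving out 1 library gave 10146 to 10307 genes under DDD86481, 9239 to 10027 under DMSO, 10070 to 10241 under IMP1088 and 3419 to 5796 for the interaction, the highest without control DMSO replicate 1. The interaction called 4328 to 4728 genes under the same scalings, tests and filter, and 3273 with only 12 libraries. Testing against a 2-fold change (edgeR's glmTreat), a stricter question by construction, left 3788 genes under DDD86481, 3190 under DMSO, 3747 under IMP1088 and 247 for the interaction. No gene called both in the values reported and in one of these fits had opposite signs in them. Upper quartile scaling shifted the median difference of all genes by -0.11 under DDD86481.

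With the replicate number as a block, 10704 genes were called under DDD86481, 9913 under DMSO, 10666 under IMP1088 and 4555 for the interaction. Same-numbered control and senescent libraries under DDD86481 correlated in their deviations from the group means at -0.018, 0.045 and 0.027, and not every library there correlated best with its own number. Under DMSO the same-numbered pairs gave 0.051, 0.056 and 0.109, each the highest for both of its libraries. No label names a pairing, and the main fit took none. These correlations cannot settle whether the replicate numbers mark a pairing.

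Depth limits genes near the floor of 3 counts a library, whose folds are given as bounds. With 3 libraries a group from 1 cell line, counting intervals and floors cover counting error only.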
